A study of Mus musculus with 17 samples.

Results

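Granulocytic cells sorted from the spleens of mice carrying a 6-week tumour were compared with those of mice carrying a 3-week tumour. The comparison rests on 4 of the 17 arrays of the study, 2 from each time, and its members were taken from the sample labels alone. The cells were positive for CD11b, high in Ly-6G and low in Ly-6C, the surface pattern given in the labels for polymorphonuclear myeloid-derived suppressor cells, and are called PMN cells here. Spleens of female BALB/c mice were pooled for each sort, and these mice had been given 100000 Her-2/CT26 cells under the skin 3 or 6 weeks earlier. CT26 is a colon carcinoma line of BALB/c origin, and its name in the labels carries Her-2, a growth factor receptor used as a tumour antigen. Naive mice of the same strain and sex received no tumour cells and gave 4 further PMN arrays. Monocytic cells (called Mo, with the opposite Ly-6C and Ly-6G pattern) from the same stages gave 3 arrays each. The labels give no age. They do not say how many spleens entered a pool or whether the numbered replicates came from separate pools. The p-values and standard errors below thus reflect only how far arrays of the same group differ, a spread that may be technical. It was estimated over all 17 arrays in 6 groups, the Mo arrays included. The study asked what makes these cells more suppressive while a tumour grows.

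Neutrophils are made in the bone marrow through a fixed series of stages. Dividing precursors first load primary (azurophil) granules with myeloperoxidase and serine proteases. Later precursors fill specific granules with lactoferrin, cathelicidin and cytochrome b558, and cells that have left the cell cycle fill gelatinase and secretory granules. Tumours that release growth factors can drive this process in the spleen as well, and the granulocytic cells that accumulate there are known to restrain T cells, among other means through reactive oxygen, arginase and prostaglandins.

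The median intensity of the 3-week arrays was 93.2 and 95.9, and that of the 6-week arrays was 82.4 and 81.0. Their upper quartiles were 184 and 187 at 3 weeks and 202 and 197 at 6 weeks, so the 6-week arrays were spread more widely. The 2 arrays of 6 weeks had a correlation of 0.994 over all genes and the 2 of 3 weeks one of 0.985, while 6-week with 3-week pairs ran from 0.901 to 0.921. Along the first principal component of the 8 PMN arrays, which held 85.3% of the variance, the 6-week arrays lay at 68.5 and 65.7. The 3-week arrays lay at -20.0 and -25.8, inside the naive range of -27.9 to -13.0. Naive replicate 2 alone set the upper end of that range. The other naive arrays lay from -27.9 to -22.0, so 3-week replicate 1 lay slightly above them. Cxcr2, the neutrophil chemokine receptor, lay between 12.44 and 12.70 on the log2 scale in all 8 PMN arrays. Ccr2, the receptor of inflammatory monocytes, lay between 6.07 and 6.78, and for both genes this is the pattern of granulocytes. Other markers were not low: Csf1r, a monocyte and macrophage marker, read 9.68 to 10.47 on these arrays. The mean of the B cell markers was 8.02 to 8.44 at 3 weeks. The purity of the sorted cells was not tested. A pair of features shared by Ly6c1 and Ly6c2 read 10.17 and 10.06, and 9.94 and 9.95, on the 3-week arrays. On the 6-week arrays they read 11.97 and 12.04, and 11.64 and 11.82, so the RNA of the antigen used to gate these cells as low was higher at 6 weeks. The labels give no array or extraction date, so such a batch and the time point cannot be told apart.

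Between 3 and 6 weeks a broad set of genes rose, among them genes of neutrophil granules and of cell division. A smaller set of inflammatory and immediate early genes fell steeply. Which cells in the sorted fraction carried these genes was not tested. Of 19938 genes, 4726 (23.7%) were higher and 6968 (34.9%) lower at 6 weeks at an adjusted p below 0.05. Counts of list members given below are to be read against these shares. A change of at least 2-fold was found for 1861 higher genes (9.33%) and 136 lower genes (0.682%). The rises were therefore fewer but larger. Without 3-week replicate 2 the total of 11694 genes was 7627. The arrays of both times did not overlap at 17089 genes (85.7%), and all 1997 genes that changed at least 2-fold were among these. The median change over all genes was -0.20 on the log2 scale.

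Most of the falls were small. As a gauge, the 1194 genes of olfactory and vomeronasal receptors, not known to act in blood cells, had a median change of -0.34, with 503 lower and 0 higher. The lowest 5% of these receptor genes lay below -0.82. Of the 6968 genes that were lower, 6538 fell by less than that, and 430 fell by more. Centring each array on its median moved the median change from -0.20 to 0.01 and the split to 5282 higher and 2438 lower genes (68.4% higher, against 40.4%). Joint quantile normalization over all 17 arrays gave 4641 higher and 4364 lower genes (51.5% higher), quantile normalization of the PMN arrays 4022 and 2683 (60.0%), and a floor at log2 6 gave 4339 and 4379 (49.8%). A fall of less than 0.82 named below, or a list median above -0.82, lies inside the range of most receptor genes. Most receptor genes are dim, however. With dim genes left out, 68 receptor genes remained, with a median change of -0.75, 63 lower and 0 higher. Brighter receptor genes thus fell further, and no limit was computed for them alone. For a brighter gene or list, a fall somewhat beyond 0.82 may therefore still lie inside their range. A change in this bulk RNA cannot tell fewer cells of a type from less RNA per cell.

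**Figure D1:**
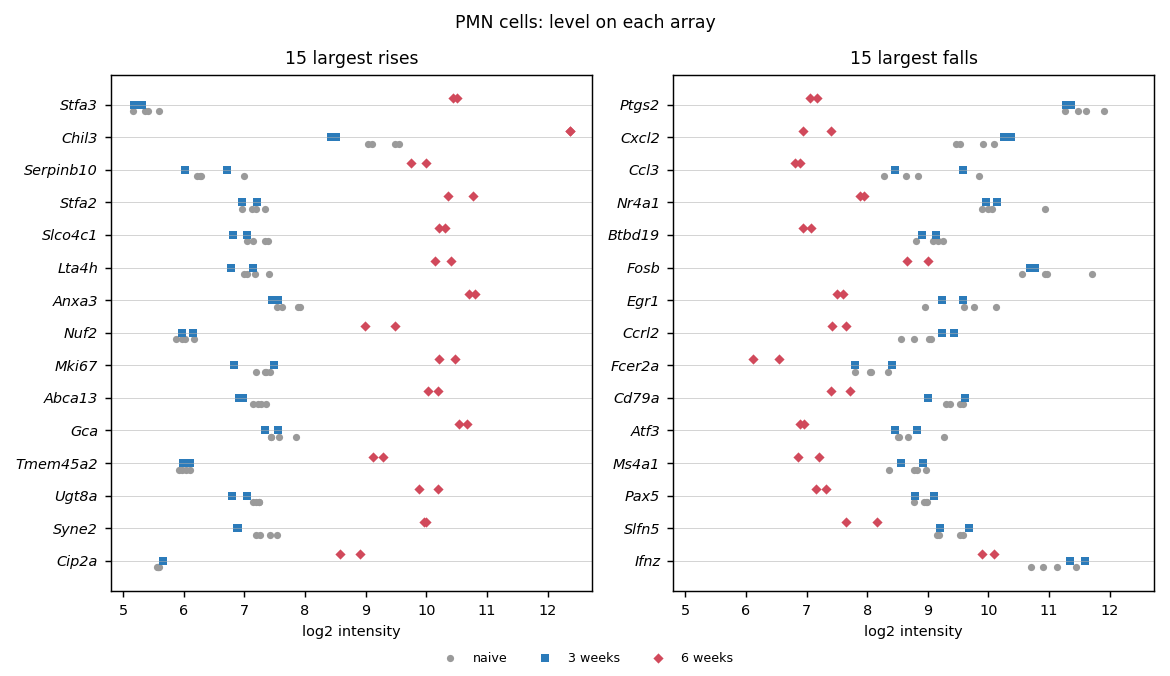
Log2 intensity (horizontal axis) of the genes with the 15 largest rises and the 15 largest falls in PMN cells, with 1 point per array: 4 naive (grey circles), 2 of 3 weeks (blue squares) and 2 of 6 weeks (red diamonds). Genes were chosen only if their 6-week and 3-week arrays lay apart, as with Stfa3 (10.43 and 10.50 against 5.17 and 5.30).

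The gene that rose most was Stfa3, which encodes a stefin A, a cysteine protease inhibitor of the cytosol. It read 5.17 and 5.30 on the 3-week arrays and 10.43 and 10.50 on the 6-week arrays, and 5.16 to 5.58 in naive PMN cells. At 3 weeks it was thus at the level of naive cells, among the dim features of the array, and at 6 weeks among the bright ones. The change of Stfa3 was 5.23 ± 0.62 (log2, SE, adjusted p = 5.39e-06, n = 2 each). The 3-week values lie below log2 6, where an array tells levels apart poorly, so no fold is given. With a floor at log2 6 the change was 4.47. Stfa2, a second stefin A, went from 7.20 and 6.96 to 10.77 and 10.36. The stefin A genes lie side by side on chromosome 16 and resemble each other closely, so their probes may share signal. Of 9 measured stefins and other protease inhibitors 5 rose and 2 fell, with a median change of 0.97. Serpinb1a, an inhibitor of the neutrophil serine proteases, rose by 3.05 ± 0.29, and Serpinb10, a serpin of blood-forming cells, rose from 6.71 and 6.02 to 9.99 and 9.74.

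Chil3 encodes Ym1, a chitinase-like lectin of neutrophil precursors and macrophages. Its log2 intensity was 8.52 and 8.43 at 3 weeks and 12.38 and 12.36 at 6 weeks, a 14.9-fold rise (3.90 ± 0.39, adjusted p = 1.12e-06). The 3-week arrays were below and the 6-week arrays far above the naive range of 9.04 to 9.55. The other large rises included the granule membrane protein gene Anxa3 (annexin A3, 3.25 ± 0.23), the calcium-binding granule protein gene Gca (grancalcin, 3.16 ± 0.32) and the transporter genes Slco4c1 (3.33 ± 0.26) and Abca13 (3.16 ± 0.22). Ugt8a, a ceramide galactosyltransferase, rose by 3.12, Syne2, which encodes a nuclear envelope protein, by 3.09, and Tmem45a2 by 3.16 with the smallest standard error of these genes (0.13). All 15 of these largest rises passed in each of the 15 alternatives in which they were tested.

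Specific granule genes rose together. All 16 measured members were higher at 6 weeks, against 23.7% of all genes, and their median change was 1.91 where that of all genes was -0.20. Camp, the gene of the antimicrobial peptide cathelicidin, went from 9.83 and 9.86 to 12.47 and 12.50, a rise of 2.64 ± 0.46. Olfm4, a marker of a part of the neutrophils, went from 9.11 and 8.89 to 11.86 and 12.06. For both genes the 6-week arrays lay above all naive arrays. Ltf (lactoferrin) rose by 1.64 and Lcn2 (lipocalin 2, which binds iron-carrying siderophores) by 1.43. The smallest rise was that of Adam8 (0.89). Between 14 and 16 members passed in each alternative.

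The window around the start of Chil3 is shown as the regulatory sequence of the member that rose most. It covers 250 bases before and 50 after the start (300 bases, RefSeq, GRCm38.p6), and capitals mark matches to TTNNGNAA on either strand, a loose form of the motif of C/EBP factors, which drive granule genes.
Chil3, chr3:106167515-106167814, strand -: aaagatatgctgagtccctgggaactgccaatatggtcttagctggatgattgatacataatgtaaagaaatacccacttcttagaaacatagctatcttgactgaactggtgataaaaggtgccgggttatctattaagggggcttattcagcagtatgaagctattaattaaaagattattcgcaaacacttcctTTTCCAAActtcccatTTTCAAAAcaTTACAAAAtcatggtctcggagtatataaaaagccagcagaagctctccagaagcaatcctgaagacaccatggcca
The Chil3 window held 3 matches. Of 14 windows of specific granule genes 11 (78.6%) held at least 1, against 40.7% of all 32851 promoter windows, and 55.2% of the 29 windows of the NF-kB list described below. These letters are common, and a match is a description only.

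Gelatinase and secretory granule genes had 8 of 10 members higher and 1 lower, with a median of 1.33. Mmp8, the neutrophil collagenase, went from 9.97 and 10.11 to 12.04 and 12.24, and Mmp25, a membrane-bound metalloprotease, from 9.12 and 9.24 to 11.07 and 11.17. Both rose about as far as the specific granule genes. Retnlg, a resistin-like secreted protein gene, rose by 2.01 ± 0.60 (adjusted p = 0.0105), a call lost without 3-week replicate 1 (1.90, 0.0530) or 6-week replicate 2 (1.97, 0.0501). Alpl, the alkaline phosphatase of secretory vesicles of late neutrophils, fell by 0.65.

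Primary granule genes behaved less uniformly. Of 12 measured members 4 rose, 0 fell and 8 did not pass, against 23.7% and 34.9% of all genes higher and lower. The list's median was 0.40. Its risers were Serpinb1a, Mpo, Ms4a3 and Elane. Serpinb1a, the protease inhibitor gene described above and counted in this list too, rose most (3.05). Mpo, the gene of myeloperoxidase, went from 6.05 and 5.69 to 7.84 and 7.32, a rise of 1.71 ± 0.33 that leaves it among the dimmer genes. Ctsg (cathepsin G) changed by 0.56 and Prtn3 (proteinase 3) by 0.68, and neither passed. Elane (neutrophil elastase) was higher by 0.78 (adjusted p = 0.0472). That call was lost without any 1 of the 4 arrays: the change was 0.89 and 0.67 without 3-week replicates 1 and 2 (adjusted p 0.0843 and 0.184), and 0.77 and 0.80 without 6-week replicates 1 and 2 (0.137 and 0.124). Ms4a3, a marker of granulocyte and monocyte precursors, was higher by 1.21, and this was lost without 3-week replicate 1 (1.12, 0.0689) or 6-week replicate 1 (1.06, 0.0849). The count of 4 was 2 without 3-week replicate 1 and 2 without 6-week replicate 1.

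All 7 measured genes of the NADPH oxidase, the enzyme that makes superoxide in the respiratory burst, were higher at 6 weeks, with a median of 1.87. Cybb, the catalytic subunit gp91phox, went from 11.66 and 11.05 to 13.31 and 13.29 (1.95 ± 0.17, adjusted p = 3.81e-07). Its membrane partner Cyba rose by 1.87 ± 0.22. Cybb and Cyba are also counted among the specific granule genes. The cytosolic subunits followed: Ncf1 (p47phox) went from 10.19 and 9.99 to 12.13 and 12.23, and Ncf4 (p40phox) from 9.28 and 9.25 to 11.35 and 11.36. In each of these 4 genes both 6-week arrays exceeded every 3-week and naive array. Hvcn1, the proton channel that balances the charge of the burst, rose by 1.28, Rac2, its GTPase switch, by 1.07 and Rac1 by 0.35. The count was 6 or 7 in each alternative.

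**Figure D2:**
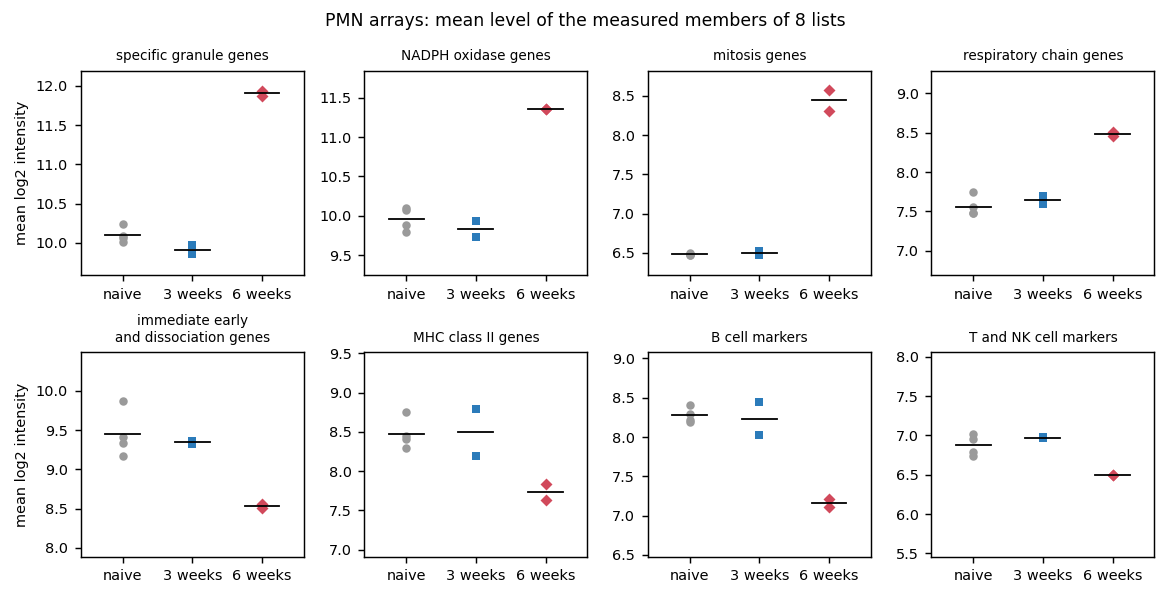
Mean log2 intensity of the measured members of 8 gene lists on each PMN array (points) and per group (bars), with vertical axes of equal span. Specific granule genes lay at 9.85 to 9.98 at 3 weeks and 11.87 to 11.93 at 6 weeks, and mitosis genes at 6.47 to 6.53 and 8.31 to 8.57, while immediate early genes and B cell markers were lower at 6 weeks.

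Genes of neutrophil precursors rose beside the granule genes. Of 19 genes of immature neutrophils and granulopoiesis 13 were higher and 2 lower, with a median of 1.21. Lta4h, which is counted in this list and is described with the lipid mediators below, rose most, followed by Dach1 (2.52 ± 0.24), a nuclear factor gene, and Ltb4r1 (2.15 ± 0.14), the high-affinity receptor of leukotriene B4. Cebpe, the C/EBP factor needed for specific granules, went from 7.83 and 7.71 to 9.17 and 8.93, and Myb, a factor of dividing progenitors, from 6.48 and 6.46 to 8.23 and 7.99. Gfi1, a repressor needed for neutrophil formation, rose by 0.83 and Fcnb, a ficolin of marrow precursors, by 1.38. Genes of earlier cells moved less: Cd34 fell by 0.37, Sox4 by 0.40 and Flt3 changed by -0.29 without passing. Among 10 markers of stem and progenitor cells 2 rose (Myb and Kit) and 5 fell, with a median of -0.38, near that of the receptor genes. Without 3-week replicate 1 or 2, 3 of these fell, and without 6-week replicate 1 it was 2. After median centring 1 fell. Kit was higher by 0.46, which was lost without 3-week replicate 2 (0.35, 0.111) or 6-week replicate 1 (0.40, 0.0829).

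Of 25 myeloid transcription factor genes 10 were higher and 7 lower, against 23.7% and 34.9% of all genes. Spi1 (PU.1) rose by 0.93, while Irf8, which favours monocytes over granulocytes, fell by 0.73 and Cebpb by 0.60. The 7 falls were 2 after median centring, and 3 or 4 without any 1 of the 4 arrays. Mature neutrophil genes were mixed. Of 21 members 11 were higher and 2 lower, with a median of 0.57, and the count of 11 was 7 after joint or PMN quantile normalization and 7 without 6-week replicate 2. Wfdc21, a secreted protein gene of the whey acidic protein family, rose by 2.25 ± 0.21 and Asprv1, an aspartic protease gene of late neutrophils, by 1.37. Cxcr2 changed by -0.12 ± 0.31 (adjusted p = 0.748). Its standard error also draws on the Mo arrays, whose standard deviation at 6 weeks was 0.82, against 0.08 in PMN cells. Csf3r, the receptor of G-CSF, went from 12.30 and 12.30 to 11.71 and 11.90. That fall of 0.50 did not pass after median centring (-0.29, 0.160) or without 6-week replicate 1 (-0.40, 0.0637).

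The alarmin genes S100a8 and S100a9, which encode both chains of calprotectin, were near the top of the array throughout. S100a8 read 12.33 and 12.38 at 3 weeks and 13.12 and 13.20 at 6 weeks, and S100a9 12.18 and 12.34 and then 12.96 and 13.04. The arrays did not overlap, but the tests were at the border, with changes of 0.81 ± 0.34 (adjusted p = 0.0495) and 0.74 ± 0.30 (0.0446). Without 3-week replicates 1 and 2 and 6-week replicates 1 and 2, in that order, S100a8 had adjusted p of 0.141, 0.126, 0.119 and 0.152 at changes of 0.78, 0.83, 0.84 and 0.77. For S100a9 these were 0.161, 0.0954, 0.107 and 0.147 at 0.66, 0.82, 0.79 and 0.70. Both calls were also lost after joint quantile normalization and with the floor at log2 6.

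Cell division genes were switched from a low to a clear level. Of 30 mitosis genes 29 were higher and 0 lower, with a median of 1.98, and the other one, Ndc80, changed by 0.43. Mki67, the proliferation antigen Ki-67, went from 7.49 and 6.82 to 10.47 and 10.21 (3.18 ± 0.43, adjusted p = 2.17e-05). Nuf2, a kinetochore subunit, went from 6.15 and 5.96 to 9.49 and 8.99. Top2a, the topoisomerase that untangles sister chromatids, went from 7.37 and 7.08 to 10.37 and 10.05. The 3-week arrays lay at the level of the naive arrays in the mean of the list (6.47 to 6.53 against 6.47 to 6.50). Ccna2 (cyclin A2) rose by 2.86, and Cip2a, an inhibitor of the phosphatase PP2A, from 5.65 and 5.65 to 8.90 and 8.57.

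Genes of DNA replication moved less evenly than those of mitosis. Of 29 members 15 were higher and 1 lower, with a median of 0.59. Both subunits of ribonucleotide reductase rose, Rrm2 by 2.35 and Rrm1 by 2.29, and Mcm7 of the replicative helicase rose by 1.56. Tyms (thymidylate synthase, 0.25), Tk1 (thymidine kinase, 0.09), Cdc6 (0.24) and Mcm10 (0.01) did not pass, and Gins2, a helicase cofactor, fell by 0.51. The count of higher members was 10 without 3-week replicate 2 or 6-week replicate 1. Red cell precursors divide too, and their markers were examined for that reason. Of 12 erythroid markers 1 rose, Tfrc, the transferrin receptor of any dividing cell (1.77, but 1.31 and an adjusted p of 0.0614 without 6-week replicate 1), and 1 fell, Epor. With the 8 PMN arrays alone or the 4 arrays of both times alone 6 erythroid markers were higher, and with a replicate block 3. The mean level of the list was 6.58 to 6.63 at 3 weeks and 7.01 to 7.13 at 6 weeks. The erythroid band 3 gene Slc4a1 changed by 0.96 (adjusted p = 0.20) and Rhag by 0.99 (adjusted p = 0.211). Both passed with the 8 PMN arrays alone (0.000155 for Slc4a1 and 0.00081 for Rhag) and with the 4 arrays alone, and Slc4a1 also with the block. Their part in the result was not tested.

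Promoter windows of the mitosis genes are shown because the list moved almost as a whole. Cell cycle promoters are known for CCAAT boxes, bound by NF-Y, and for a TTTGAA element, bound by the DREAM complex. Capitals mark both motifs on either strand.
Mki67, chr7:135716330-135716629, strand -: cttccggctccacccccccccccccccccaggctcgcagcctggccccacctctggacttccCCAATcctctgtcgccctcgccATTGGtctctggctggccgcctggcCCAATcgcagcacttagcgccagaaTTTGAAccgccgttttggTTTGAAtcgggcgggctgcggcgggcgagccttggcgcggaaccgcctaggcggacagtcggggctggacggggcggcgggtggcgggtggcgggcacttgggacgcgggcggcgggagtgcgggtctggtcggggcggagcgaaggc
Top2a, chr11:99024140-99024439, strand -: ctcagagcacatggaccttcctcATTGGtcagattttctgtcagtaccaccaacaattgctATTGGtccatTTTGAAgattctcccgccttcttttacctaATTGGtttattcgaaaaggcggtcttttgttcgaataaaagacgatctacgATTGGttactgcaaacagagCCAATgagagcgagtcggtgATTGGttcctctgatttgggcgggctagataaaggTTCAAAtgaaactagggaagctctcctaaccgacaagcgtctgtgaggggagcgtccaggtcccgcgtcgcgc
The Mki67 window held 3 CCAAT and 2 TTTGAA matches, and the Top2a window 6 and 2. Of 27 windows of 26 mitosis genes 20 (74.1%) held CCAAT and 21 (77.8%) held TTTGAA. Over all promoter windows these shares were 37.4% and 17.9%. The motifs do not overlap each other in these windows.

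Genes of energy metabolism rose in cytosol and mitochondria. Of 26 glycolysis and hypoxia genes 18 were higher and 1 lower, with a median of 0.85. Hk3, the hexokinase of myeloid cells, went from 8.58 and 8.53 to 10.56 and 10.55, and Hk2 rose by 1.75 ± 0.15. Ero1a, an oxidase of the endoplasmic reticulum that hypoxia induces, rose by 2.54, Ldha (lactate dehydrogenase A) by 1.45 and Hif1a, the hypoxia-inducible factor itself, by 0.80. The glucose transporter gene Slc2a3 rose by 1.56 and Slc2a1 by 0.35. Other targets of hypoxia did not move with them: Bnip3 fell by 0.48, and Pdk1 (0.07), Ddit4 (-0.21) and Ankrd37 (-0.37) did not pass.

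Of 24 respiratory chain genes 19 were higher and 0 lower, with a median of 0.89 and members of every complex among them. Ndufv2 of complex I rose by 1.67 ± 0.18, Sdhb of complex II by 1.35, Uqcrc2 of complex III by 1.11, Cox4i1 of complex IV by 1.27 and Atp5b of the ATP synthase by 0.95. Antioxidant genes had 11 of 20 members higher and 2 lower. Gsr (glutathione reductase) went from 8.65 and 8.67 to 10.22 and 10.19, Gclm, a subunit of the enzyme that starts glutathione synthesis, rose by 1.98 and Gpx1 (glutathione peroxidase) by 1.55. Sod1, the cytosolic superoxide dismutase, fell by 0.93.

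Of 25 genes of the unfolded protein and amino acid responses 13 were higher and 2 lower (median 0.32), but this count was 8 after joint quantile normalization, 6 after PMN quantile normalization and 7 without 3-week replicate 2. Asns (asparagine synthetase) rose by 2.33 ± 0.16, and Xbp1, a factor that expands the endoplasmic reticulum, rose by 1.21. The stress markers Ddit3 (-0.20) and Trib3 (-0.21) did not pass, and the chaperone gene Hspa5 fell by 0.37. Of 20 lipid genes 8 were higher and 1 lower, against 23.7% and 34.9% of all genes. Olr1 encodes LOX-1, a receptor for oxidised lipoproteins that marks suppressive neutrophils in human blood. It went from 6.00 and 5.76 to 8.59 and 8.31 (2.57 ± 0.13, adjusted p = 2.36e-09), above the naive range of 5.91 to 6.18. Dgat1 and Dgat2, which complete triglycerides, rose by 1.53 and 1.44, while the fatty acid transporter gene Cd36 changed by -0.21 without passing.

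Of 15 prostaglandin and leukotriene genes 6 were higher and 3 lower, against 23.7% and 34.9% of all genes. The list's median was 0.15, and the largest changes went both ways. Lta4h, which makes the chemoattractant leukotriene B4, went from 7.14 and 6.78 to 10.41 and 10.15 (3.32 ± 0.27, adjusted p = 1.39e-07). Alox5 (5-lipoxygenase) went from 10.05 and 10.01 to 11.40 and 11.42, Alox5ap, its activating protein, rose by 1.34 and Pla2g4a, the phospholipase that frees arachidonic acid, by 1.32. Ptgs2, which encodes cyclooxygenase 2, was the gene that fell most. It read 11.28 and 11.36 at 3 weeks and 7.18 and 7.05 at 6 weeks, against 11.26 to 11.90 in naive cells, an 18.5-fold fall (-4.21 ± 0.21, adjusted p = 1.62e-09). Ptges, the inducible prostaglandin E synthase, changed by 0.15 and Hpgd, which breaks prostaglandins down, by -0.12, and neither passed. Ltc4s, the leukotriene C4 synthase gene, fell by 0.26, and Ptges2, another prostaglandin E synthase gene, rose by 0.77. The 3 lower genes of the list were 1 without 3-week replicate 1 or either 6-week array.

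Cxcl2, a chemokine that attracts neutrophils, fell second most, from 10.37 and 10.26 to 6.93 and 7.40 (-3.15 ± 0.23). Ccl3, a chemokine of activated myeloid cells, went from 9.57 and 8.46 to 6.81 and 6.89, and Ccl4 fell by 1.16. The levels at 6 weeks were below all naive arrays for these genes. Of 30 chemokine and cytokine ligand genes 14 were lower and 3 higher, against 34.9% and 23.7% of all genes, and the list's median of -0.34 equalled that of the receptor genes. Without dim genes 4 of 13 members were lower, and after PMN quantile normalization 8 of 30. The 3 that rose were Tnf, the gene of tumour necrosis factor, which went from 7.82 and 7.49 to 8.68 and 9.01, Tnfsf14 (0.51) and Vegfa (0.34).

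Immediate early genes, which stimulation or the handling of cells can induce within minutes, fell in large part. Of 19 members 12 fell and 0 rose, with a median of -0.77. Nr4a1, a nuclear receptor gene of this class, went from 10.15 and 9.96 to 7.95 and 7.88, and Fosb, a partner of Jun in AP-1, fell by 1.90 ± 0.42. Egr1 fell by 1.86 ± 0.27, Atf3 by 1.71 and Fos by 1.24. Not all members took part: Jun changed by -0.18, Ier2 by 0.14 and Klf6 by 0.17, and none of these passed. The mean of the list was 9.33 and 9.36 at 3 weeks and 8.51 and 8.56 at 6 weeks, and it ran from 9.17 to 9.87 in naive cells. Between 8 and 14 members fell in the alternatives.

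Of 27 NF-kB and TNF feedback genes 11 were lower and 4 higher, against 34.9% and 23.7% of all genes. The list's median of -0.26 lies near the median of all genes, so the falls below are of single members. Besides Ptgs2, Cxcl2 and Ccl3, the interleukin gene Il1b (from 12.58 and 12.72 to 11.61 and 11.69) and the feedback deubiquitinase gene Tnfaip3 (-0.86) fell. The inhibitor gene Nfkbia (0.13) and the subunit genes Rel (-0.16) and Relb (-0.17) did not pass. Tnf, Nfkbib, Nfkbie and Bcl3 were the members that rose, and without 6-week replicate 2 only 2 of the list passed as higher. Heat shock chaperone genes, which handling can also induce, had 4 of 11 higher and 2 lower, against 23.7% and 34.9% of all genes. After joint or PMN quantile normalization these counts were 2 and 3. Dnajb1 rose by 0.87 and Hspb1 fell by 0.70, while Hspa1a changed by -0.11 and was not past the test.

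The start windows of Ptgs2, Cxcl2 and Nr4a1 are shown, 1 each from the prostaglandin, chemokine and immediate early lists (Ccl3, which fell slightly more than Nr4a1, is not shown), with matches to CGTCA, the core site of CREB and related factors, and to the consensus of NF-kB, a motif of 10 bases, on either strand.
Ptgs2, chr1:150099781-150100080, strand +: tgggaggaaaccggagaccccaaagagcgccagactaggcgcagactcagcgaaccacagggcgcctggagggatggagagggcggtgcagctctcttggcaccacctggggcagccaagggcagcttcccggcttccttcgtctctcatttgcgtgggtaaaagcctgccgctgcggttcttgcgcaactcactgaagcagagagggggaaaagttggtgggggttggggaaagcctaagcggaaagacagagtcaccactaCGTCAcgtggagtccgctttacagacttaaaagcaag
Cxcl2, chr5:90903649-90903948, strand +: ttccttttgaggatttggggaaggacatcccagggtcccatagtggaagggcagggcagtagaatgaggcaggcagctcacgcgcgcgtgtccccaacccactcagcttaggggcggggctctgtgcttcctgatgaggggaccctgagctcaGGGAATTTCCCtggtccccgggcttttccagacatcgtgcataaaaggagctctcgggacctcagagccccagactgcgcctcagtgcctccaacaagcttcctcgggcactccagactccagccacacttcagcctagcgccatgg
Nr4a1, chr15:101266596-101266895, strand +: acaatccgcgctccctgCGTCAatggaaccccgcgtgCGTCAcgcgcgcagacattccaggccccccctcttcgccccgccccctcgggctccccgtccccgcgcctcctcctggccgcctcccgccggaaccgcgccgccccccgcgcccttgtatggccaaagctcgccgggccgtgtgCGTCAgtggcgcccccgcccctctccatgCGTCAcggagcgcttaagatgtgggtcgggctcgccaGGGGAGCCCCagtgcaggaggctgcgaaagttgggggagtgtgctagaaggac
The Ptgs2 window held 1 CGTCA match, just after the RefSeq start, and 0 NF-kB matches. The Cxcl2 window held 0 CGTCA matches and 2 NF-kB matches that overlap each other, and the Nr4a1 window 4 and 1. Among 20 windows of 16 immediate early genes 12 (60.0%) held CGTCA, against 20.8% of all windows. Of 29 windows of the NF-kB list 14 (48.3%) held the NF-kB consensus, against 8.46% of all windows.

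The other large falls were of genes outside these lists or with other roles. Slfn5, a gene of the schlafen family, fell by 1.54 ± 0.29. Btbd19 went from 8.90 and 9.13 to 7.07 and 6.94. Ifnz, which encodes interferon zeta, fell by 1.48 ± 0.42 (adjusted p = 0.0075), a call lost without 3-week replicate 2 (-1.36, 0.0531). Ccrl2, a receptor that presents the chemoattractant chemerin, went from 9.43 and 9.24 to 7.43 and 7.65.

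Of 24 Fc, lectin and Toll-like receptor genes 13 were higher and 3 lower, with a median of 0.70. Clec4a2, an inhibitory lectin receptor gene, went from 5.71 and 5.80 to 8.68 and 8.53, Clec12a, another inhibitory lectin, from 8.15 and 7.99 to 10.71 and 10.71, and Clec5a, an activating one, from 8.99 and 8.78 to 11.20 and 11.20. Tlr4, the endotoxin receptor, rose by 1.25 and Fcgr2b, the inhibitory Fc receptor, by 1.33. Clec7a (dectin 1) fell by 0.71 and Tlr9 by 0.64. Of 15 chemoattractant receptor genes 3 were higher and 5 lower, shares near those of all genes (23.7% and 34.9%): Ltb4r1 rose from 7.83 and 8.04 to 9.97 and 10.21, and S1pr4 by 1.18, while S1pr1, the receptor that guides exit from tissues, fell by 1.13 and the homing receptor gene Ccr7 by 1.09. The 5 were 3 without 3-week replicate 1 or either 6-week array.

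Of 26 JAK-STAT genes 13 were higher and 4 lower, with small changes of at most 0.73. Il4ra, the interleukin 4 receptor chain, went from 8.16 and 8.14 to 8.86 and 8.90 (0.73 ± 0.11), and Stat3 rose by 0.67 ± 0.13. The count of 13 was 9 and 7 after joint and PMN quantile normalization and 8 without 3-week replicate 2, and the 4 lower members were 0 after median centring. Adhesion genes were led by Cd177, a surface protein of neutrophil subsets, which went from 10.06 and 9.90 to 12.46 and 12.46, by Ly6g and by Ceacam1 (2.16 ± 0.15). Ly6g, the antigen used for the gate, read 10.91 and 10.23 at 3 weeks and 12.97 and 12.94 at 6 weeks (2.39 ± 0.55, adjusted p = 0.00209). Itgam, which encodes CD11b, went from 10.91 and 10.88 to 11.93 and 11.88. Of the 17 adhesion genes 8 were higher and 3 lower, and the 3 were 1 without 3-week replicate 1 and 0 after median centring.

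Genes linked with the suppression of T cells did not move as a group. Of 28 members 9 were higher and 8 lower (10 and 2 after median centring), against 23.7% and 34.9% of all genes. The median was 0.13. The 8 were 5 without 3-week replicate 1 and 4 without 6-week replicate 2. Those that rose were the oxidase genes Ncf1 and Cybb, the checkpoint gene Vsir (VISTA, 1.48 ± 0.14), the galectin gene Lgals9 (1.36), Bst1, Nt5e, Il4ra, S100a8 and S100a9. Arg1, the gene of arginase 1, was dim on every PMN array, at 5.86 and 5.62 and then 5.36 and 5.34. Its fall of 0.39 lay close to the median of the receptor genes (-0.34). It did not pass after median centring (-0.18, 0.241) or joint quantile normalization (-0.21, 0.151), and it was 0 with the floor. It was also lost without 3-week replicate 1 (-0.27, 0.150), 6-week replicate 1 (-0.40, 0.0573) or 6-week replicate 2 (-0.38, 0.0673).

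Arg2, the mitochondrial arginase gene, read 8.51 and 9.04 at 3 weeks and 8.86 and 9.15 at 6 weeks, so that the arrays overlapped (0.23 ± 0.24, adjusted p = 0.407). Nos2, the inducible nitric oxide synthase gene, went from 6.93 and 6.85 to 6.39 and 6.34. That fall of 0.53 was not past the test after median centring (-0.32, 0.0911), nor without 3-week replicate 1 (-0.49, 0.0732), 6-week replicate 1 (-0.55, 0.0515) or 6-week replicate 2 (-0.51, 0.0694). Cd274, which encodes PD-L1, went from 8.24 and 8.28 to 7.44 and 7.67 (-0.70 ± 0.18), and its call was lost after median centring (-0.49, 0.0518). Vcan, the proteoglycan gene versican, stayed dim (5.32 and 5.41, then 5.33 and 5.75), with no difference past the test (0.17, adjusted p = 0.588). Ptgs2, described above, had the largest change of these genes.

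**Figure D3:**
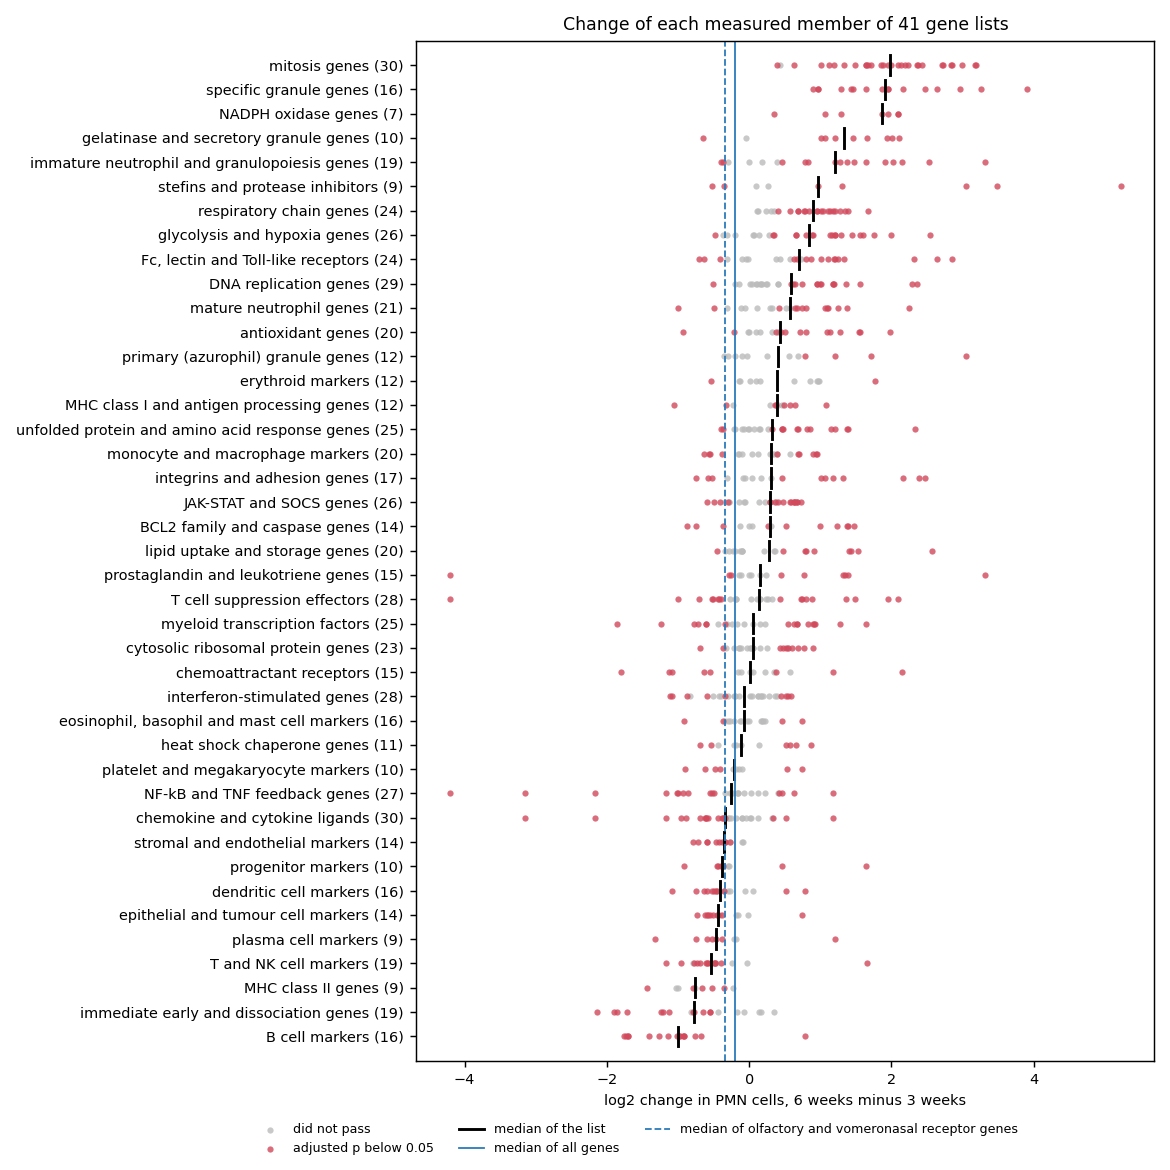
Log2 change from 3 to 6 weeks in PMN cells (horizontal axis) for every measured member of 41 gene lists (number in parentheses), red where the adjusted p was below 0.05 and grey where not, with black bars for list medians. Mitosis, specific granule and NADPH oxidase genes have medians of 1.98, 1.91 and 1.87, while B cell markers are lowest at -0.999. Solid and dashed lines mark all genes (-0.20) and the olfactory and vomeronasal receptor genes (-0.34), and erythroid markers (0.39) and monocyte and macrophage markers (0.31) lie above both.

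The count of changed interferon-stimulated genes depended on the fit. Of 28 members 4 were higher and 5 lower, against 23.7% and 34.9% of all genes, with a median of -0.07. Without 3-week replicate 1 these counts were 2 and 4, and without 3-week replicate 2 or 6-week replicate 1 they were 3 and 3. With the 8 PMN arrays alone or the 4 arrays alone they were 7 and 9, and after PMN quantile normalization 2 and 8. Rsad2 (viperin) went from 8.98 and 9.16 to 7.84 and 8.09, and Ifit3 fell by 1.08, while Ifit2 rose by 0.55 and Stat2 by 0.59. Mx1 (-0.20) and Irf7 (-0.50) did not pass. The class I presentation list had 6 of 12 higher and 2 lower. The 6 were 2 after joint quantile normalization or without 3-week replicate 2, and 3 without either 6-week array. Nlrc5, the transactivator of class I genes, fell by 1.05 and the proteasome activator gene Psme1 rose by 1.09.

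MHC class II genes, which neutrophils use little, had 5 of 9 members lower and 0 higher, against 34.9% and 23.7% of all genes. Their median was -0.76. Cd74, the invariant chain, read 10.79 and 10.05 at 3 weeks and 8.72 and 9.26 at 6 weeks, a fall of 1.43 ± 0.41 that did not pass without 3-week replicate 1 (-1.06, 0.0914) or 6-week replicate 1 (-1.16, 0.0789). H2-Aa (adjusted p = 0.0710) and H2-Ea (-1.03, 0.0876) did not pass. The count of 5 was 0 without 3-week replicate 1, 7 without 3-week replicate 2, 2 and 3 without 6-week replicates 1 and 2 and 1 after median centring, and it was 8 with the 8 PMN arrays alone or the 4 arrays alone.

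B cell markers were the lowest of the lists. Of 16 measured members 15 were lower and 1, Cd37, higher, with a median of -0.999. Cd79a, a chain of the B cell receptor, fell by 1.74 ± 0.39. Fcer2a (CD23) went from 8.41 and 7.79 to 6.55 and 6.12 and the B cell factor gene Pax5 from 9.10 and 8.78 to 7.32 and 7.15. Ms4a1 (CD20) fell by 1.71, which did not pass without 3-week replicate 1 (-1.53, 0.0587) or 6-week replicate 2 (-1.54, 0.0614). The mean level of the list was 8.44 and 8.02 at 3 weeks, 7.11 to 7.22 at 6 weeks and 8.20 to 8.41 in naive cells. Without 3-week replicate 1 the number of lower members was 8. The part of B cell RNA in the falls of MHC class II genes was not tested.

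T and NK cell markers had 14 of 19 members lower and 1 higher, against 34.9% and 23.7% of all genes. The list's median was -0.54, and 5 members were lower after median centring. Cd2 fell by 1.17 and Cd3e by 0.49, while Cd3d went from 6.96 and 6.99 to 8.51 and 8.76, against its partners in the same complex. The mean of the list was 6.96 to 6.98 at 3 weeks and 6.50 at 6 weeks. The number of lower members was between 7 and 10 without any 1 of the 4 arrays. Dendritic cell markers had 9 of 16 lower (3 after median centring), plasma cell markers 6 of 9 (2), stromal and endothelial markers 10 of 14 (4) and epithelial and tumour cell markers 9 of 14 (3). Over all genes 34.9% were lower. Higher members numbered 2, 1, 0 and 1 in these lists, in the same order. Leaving out single arrays gave 3 to 6, 2 to 5, 4 to 6 and 4 to 6 lower members for these 4 lists. The medians of these lists lay from -0.36 to -0.47, near that of the receptor genes. Monocyte and macrophage markers did not follow: 6 of 20 were higher and 4 lower, against 23.7% and 34.9% of all genes. The counts without 3-week replicate 1 were 7 and 1, without 3-week replicate 2 they were 2 and 2, and without 6-week replicate 1 or 2 they were 3 and 1. Their mean level was 7.63 to 7.90 at 3 weeks and 7.96 to 7.98 at 6 weeks. Csf1r changed by -0.16 and Ccr2 by 0.35, neither past the test. The members with the largest changes, Vcam1, Cd163, Mrc1 and Spic, were higher. Over the alternatives the change was 0.59 to 1.18 for Vcam1 and 0.73 to 1.18 for Cd163. It was 0.60 to 1.20 for Mrc1 and 0.61 to 0.91 for Spic. The calls of Vcam1, Mrc1 and Spic were lost in part of the alternatives.

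The array also carries features for microRNA genes, which read the long primary transcript and not the mature RNA. Of 291 such genes 6 were higher and 134 lower, against 23.7% and 34.9% of all genes. Their median of -0.32 lay near that of the receptor genes. The 2 largest falls and the largest rise were picked after their values were seen. Mir27a went from 10.13 and 10.33 to 8.42 and 8.49 (-1.78 ± 0.34) and Mir23a, its neighbour on chromosome 8, from 9.81 and 9.92 to 8.18 and 8.41 (-1.57 ± 0.35). Mir142, a microRNA gene of all blood cells on chromosome 11, rose from 7.55 and 7.97 to 9.04 and 9.01. The mature sequences are given from RefSeq, with the seed (bases 2 to 8) in capitals.
miR-27a-3p: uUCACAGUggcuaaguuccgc
miR-23a-3p: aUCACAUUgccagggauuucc
miR-142a-5p: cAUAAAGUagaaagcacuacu
miR-142a-3p: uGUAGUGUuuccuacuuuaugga
No 2 of these seeds are the same, though those of the neighbours begin alike. The third member of the cluster, Mir24-2, was lower by 0.84, which did not pass in 4 of the 15 alternatives.

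Whether PMN cells changed differently from Mo cells of the same stages was tested as the difference between both changes. The PMN change lay above the Mo change for 3445 genes (17.3%) and below it for 2373 (11.9%). Levels of both subsets were not compared, because their arrays appear to have been normalized apart. The genes furthest above were Serpinb10 (difference 4.23 ± 0.35, adjusted p = 1.02e-06), Stfa3 (4.04 ± 0.80), Tmem45a2 (3.24), Aldh2 (3.03), a mitochondrial aldehyde dehydrogenase gene, and Stfa2 (3.02). Aldh2 went from 8.79 and 8.68 to 11.45 and 11.31 in PMN cells and changed by -0.38 in Mo cells. Among the 3 Mo arrays of 6 weeks, replicate 2 stood apart for Stfa3 (8.26, against 5.13 and 5.31) and for Ly6g (8.95, against 6.56 and 6.43). Without that array the difference was 5.05 for Stfa3 and 3.65 for Stfa2, and with array weights it was 2.63 for Stfa3 and 2.33 for Stfa2.

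The genes furthest below were Ptgs2 (-3.83 ± 0.27), Ctsg (-3.39), Cxcl2 (-3.26), Saa3 (-3.23), an acute phase protein gene, and Mpo (-2.87). In PMN cells Ctsg and Saa3 did not change past the test, so their differences rest on rises in Mo cells. Azurophil granule genes had 6 of 12 members below and 1 above the Mo change, and the median change was 0.40 in PMN against 1.52 in Mo cells. DNA replication genes had 17 of 29 below and 0 above, with medians of 0.59 and 1.48. Mitosis genes had 3 of 30 below and 1 above, with medians of 1.98 and 2.42. For Nuf2 the changes were 3.18 and 3.00, with a difference of 0.19 ± 0.40 (adjusted p = 0.730).

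Above the Mo change lay all 7 NADPH oxidase genes, 10 of 16 specific granule genes, 14 of 24 Fc, lectin and Toll-like receptor genes and 12 of 26 glycolysis and hypoxia genes, against 17.3% of all genes. Cybb and Cyba count among both the oxidase and the specific granule genes. The median change of the oxidase genes was 1.87 in PMN and 0.09 in Mo cells. Interferon-stimulated genes had 21 of 28 members above and 0 below, with a median of -0.07 in PMN and -1.28 in Mo cells. S100a8 and S100a9 lay below, with differences of -2.11 and -2.57. Both were outside the 10 genes whose difference was examined under the alternatives. Array weights raised the count of 5818 genes to 11682, and it was 3641 without PMN 3-week replicate 2, 9334 without Mo 3-week replicate 1, 3882 and 3916 without PMN 6-week replicates 1 and 2 and 3351 after PMN quantile normalization. The difference of each of the 10 genes named here passed under each of the 19 alternatives that kept it. Leaving out dim genes removed Ctsg, Mpo, Saa3, Stfa3 and Tmem45a2.

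**Figure D4:**
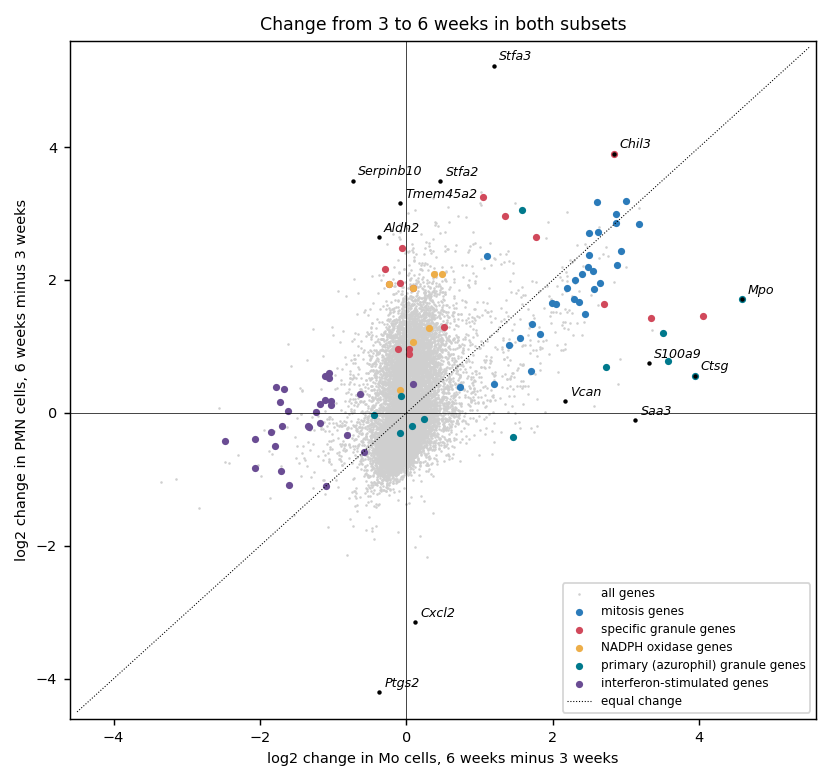
Log2 change from 3 to 6 weeks in Mo cells (horizontal axis) and PMN cells (vertical axis) for 19938 genes (grey points), with 5 gene lists in colour, named genes in black and a dotted line of equal change. NADPH oxidase genes lie along the vertical axis (medians 1.87 in PMN and 0.09 in Mo), mitosis genes near the dotted line (1.98 and 2.42) and interferon-stimulated genes to the left of the vertical line (-0.07 and -1.28).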

How the data were processed

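The study ran 17 arrays of the Affymetrix type Mouse Gene 1.0 ST. The authors deposited linear intensities, and the submitters' processing notes name RMA. That method usually subtracts background, normalizes quantiles and summarizes probes. Its version, settings and grouping of arrays are not given in the sources used here. The intensities were put on the log2 scale here. The upper quartiles were 254 to 298 on Mo arrays and 183 to 202 on PMN arrays, while the medians of both overlapped. On account of the quartiles the subsets were treated as normalized apart.

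Of 35557 features 21789 carried 1 gene symbol, 1621 several and 12147 none. The feature with the highest mean was kept for each of 19938 genes. limma 3.58.1 (R 4.3.3) fitted 6 group means over all 17 arrays (lmFit, contrasts.fit and eBayes, 11 residual degrees of freedom), with two-sided tests, Benjamini-Hochberg adjustment over the 19938 genes and a threshold of 0.05. P-values are from this fit unless an alternative is named beside them. The number of arrays, 2 a group, limits the precision. SE is the standard error of a change. The pipeline was tested on simulated data.

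The arrays to compare, the gene lists (41) and the rule for named genes were chosen with earlier results of these data known. Named were the 15 largest rises and falls past the test without overlap (skipping predicted, small RNA, receptor and antigen receptor genes), up to 4 members of each list with the largest changes, a preset group of genes for suppression and sorting and the 5 largest differences from Mo cells each way. Other list members are given as examples and were chosen after their values were seen. Alternatives were median centring, joint and PMN quantile normalization, a floor at log2 6, leaving out genes with a mean below log2 7 over PMN arrays, the mean of a gene's features, an intensity trend, array weights, fewer arrays in the fit, a replicate block and leaving out each array. Promoter windows and microRNAs are from RefSeq (GRCm38.p6), matched by symbol. Features of several genes are not named, Ly6c1 and Ly6c2 apart.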

Additional observations from a re-analysis of the deposited data

Results flagged for a closer look

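For 3 genes the naive PMN group had 1 naive PMN array far from the other 3, and each time it was replicate 2. Serpinb10 read 6.99 there, against 6.22 to 6.29. Nr4a1 read 10.92, against 9.89 to 10.06. Ly6g read 11.14, against 10.21 to 10.37. A gap of this size appears by chance in about 1 of 20 groups, and 43 genes were looked at. That rate takes each gene alone, while these 3 were read from the same array. This array read 9.87 for the mean of immediate early genes (others 9.17 to 9.41) and 9.86 for ribosomal protein genes (9.33 to 9.47). For interferon-stimulated genes it lay among the others (7.82, against 7.63 to 7.84). It set the upper end of the naive range along the first principal component. Whether the gaps belong to a shift of the whole array was not tested. The naive arrays enter the comparison of 6 with 3 weeks only through the estimate of the spread.

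The change from 3 to 6 weeks differed between the subsets by a test of the difference itself for the 10 genes named by rule. Higher in PMN than in Mo cells was the change of Serpinb10 (4.23), Stfa3 (4.04), Tmem45a2 (3.24), Aldh2 (3.03) and Stfa2 (3.02). Lower was that of Ptgs2 (-3.83), Ctsg (-3.39), Cxcl2 (-3.26), Saa3 (-3.23) and Mpo (-2.87).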

How the results depend on the processing

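The count of 11694 genes past the test between 6 and 3 weeks was 7720 after median centring, 6705 after quantile normalization of the PMN arrays and 5508 of 7424 with dim genes left out, where fewer genes were tested. It ran from 7627 (without 3-week replicate 2) to 9166 when single arrays were left out. The count for the difference from Mo cells, 5818, was 3351 after PMN quantile normalization and 11682 with array weights, whose estimation stopped before it converged. It ran from 3641 to 9334 when single arrays were left out. Apart from the fewer genes and arrays, the cause was not tested. Same-numbered PMN arrays of both times did not deviate together (r = -0.02 over 19938 genes), so the numbers were not taken as pairs. A replicate block gave 12878 genes for the PMN comparison and 7916 for the difference. Of 161 named genes that passed, 126 passed in every alternative in which they were tested (dim genes were left out of 1 of the 15). Reversed in direction, none past the test, were Cxcr2 (0.0937) and Saa3 (0.10) after median centring, Saa3 (0.11) and Arg2 (-0.14) after joint quantile normalization, Saa3 (0.11) and Arg2 (-0.13) after PMN quantile normalization, Arg2 without 3-week replicate 1 and Vcan without 6-week replicate 2. Leaving out single arrays gave -0.0345 to 0.494 for Arg2 and -0.0386 to 0.384 for Vcan. Dim features, such as those of Arg1 and Vcan, limit what can be said of low genes, since their changes vanish at the floor.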

Other observations

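Of 14 measured BCL2 family and caspase genes 7 rose and 3 fell, against 23.7% and 34.9% of all genes, with a median of 0.29. Casp1, the caspase of inflammasomes, went from 6.74 and 6.68 to 8.23 and 8.15, and Casp4, its partner in the response to cytosolic endotoxin, rose by 1.24. Casp8 rose by 1.37 and Xiap, an inhibitor of caspases, by 1.40. Bcl2 fell by 0.74, Mcl1, a survival factor of neutrophils, by 0.37 and Pmaip1 (Noxa) by 0.87. The changes of Casp1, Casp4, Casp8 and Xiap lay above those in Mo cells by 1.44 to 2.10.

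Of 23 cytosolic ribosomal protein genes 8 rose and 2 fell, with a median of 0.05, against 23.7% and 34.9% of all genes. The count of 8 was 4 after joint quantile normalization, 3 after PMN quantile normalization, 3 without 3-week replicate 2, and 5 and 4 without 6-week replicates 1 and 2. Rps9 rose by 0.77 and Rps2 fell by 0.69. Of 16 markers of eosinophils, basophils and mast cells 2 rose and 2 fell, against 23.7% and 34.9% of all genes. Hdc, the histidine decarboxylase gene that neutrophils use too, rose by 0.74 and Gata2 fell by 0.92. Of 10 platelet markers 2 rose and 4 fell, near the shares of all genes, and without single arrays 1 or 2 fell.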
